A study of Mus musculus with 96 samples.

Results

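The mir-34 family consists in the mouse of mir-34a and of the pair mir-34b and mir-34c. The 3 hairpins were taken from the liver table by their miRBase accessions, MI0000584 for mir-34a, MI0000404 for mir-34b and MI0000403 for mir-34c, and make up 3 of its 1187 hairpins. Each library came from the liver of 1 C57BL/6 mouse, and 96 mice at 6 or 10 months of age formed 24 groups of 4. Knock-in mice were heterozygous, with 1 unaltered Htt allele and 1 allele that held a human HTT exon 1 of 20 (Q20), 50 (Q50), 92 (Q92) or 140 (Q140) CAG repeats. Wild-type (WT) mice, with 2 unaltered alleles, were bred in the Q20 line or the Q50 line. At each age every genotype and line held 4 females and 4 males, and WT of both lines together with Q20 were the controls. Q92 and Q140 mice had no WT mice of their own line, so that for these 2 genotypes CAG length and line cannot be told apart. The labels list Q92 and Q140 mice as housed with mice of their own genotype and the other groups as housed in a mix with WT, whereas the study's methods describe cages that mixed heterozygous and WT mice. Levels are given as CPM, the count scaled to the library total.

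A microRNA is cut from a hairpin-shaped transcript into 1 or both of its arms, and bases 2 to 8 of a mature arm, the seed, pair with target messenger RNAs and lower their output. The mir-34 family is known as a direct transcriptional target of p53, the DNA damage response factor, and its targets include regulators of the cell cycle and of cell survival. Mir34a has a transcript of its own and is found in many tissues, whereas mir-34b and mir-34c share 1 primary transcript and are known for their high levels in multiciliated epithelia and in the testis. In the liver, mir-34a is known to lower the deacetylase Sirt1 and to rise in fatty liver disease.

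The mature arms are shown because the seed sets which messenger RNAs an arm pairs with and because the deposited counts are per hairpin, so that the arms of a hairpin were not measured separately. The sequences are those of RefSeq on GRCm38.p6, written 5′ to 3′ with the seed in capitals, for the arms of the 3 members that the table holds, and the 5p arm of mir-34c was not used here.
mmu-miR-34a-5p: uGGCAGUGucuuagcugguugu
mmu-miR-34b-5p: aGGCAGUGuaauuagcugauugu
mmu-miR-34a-3p: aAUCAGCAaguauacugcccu
mmu-miR-34b-3p: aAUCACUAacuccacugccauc
mmu-miR-34c-3p: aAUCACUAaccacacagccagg

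The 5p arms of mir-34a and mir-34b had the same seed and matched at 11 of 22 bases, counted position by position from the 5′ end without gaps. The arm of mir-34b is longer, 23 against 22 bases, and the bases that both share beyond the seed are shifted in it. This count thus understates how alike the 5p arms are and cannot be set against that of the 3p arms. This seed occurred in 4 of the 1738 mature sequences of the table, a count that leaves out the 5p arm of mir-34c, and the other 2 belonged to Mir449a and Mir449c, which count as the same seed family. The 3p arms of mir-34b and mir-34c shared a different seed, which no other mature sequence in the table had, and matched at 17 of 22 bases. The 3p arm of mir-34a had a seed of its own.

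On GRCm38, Mir34a lies on chromosome 4 at chr4:150068454-150068555 on the plus strand, where its end overlaps the first bases of Gm37795, a transcript of GENCODE vM21 that is still to be checked by experiment. Mir34c and Mir34b lie on the minus strand of chromosome 9, at chr9:51103034-51103110 and chr9:51103562-51103645, with 451 bases between them. Both fall within the span of the protein-coding gene Btg4 on the opposite strand and overlap none of its annotated exons. The hairpin lengths recovered from the deposited tables were 102, 84 and 77 nucleotides and equalled those of Mir34a, Mir34b and Mir34c in RefSeq, although 7, 23 and 13 of the 1005 hairpins of the RefSeq table have these lengths.

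The library totals ran from 2195052 to 6662671 counts with a median of 5149567, and males had lower medians than females, with 4259133 against 5149567 at 6 months and 5186571 against 5837609 at 10 months. mir-34a held 73 to 383 counts per library with a median of 175.5, mir-34c held 19 to 209 with a median of 56, and mir-34b held 0 to 17 with a median of 4. By mean CPM they ranked 162nd, 200th and 347th of the 1018 hairpins that were above 0 in some library. A single library, WT of the Q50 line, 10 months, female replicate 1, had 0 counts of mir-34b, which allows a level of up to 0.558 CPM at 3 counts. Pooled over all libraries, mir-34b stood at 0.886 CPM with an exact Poisson 95% interval of 0.804 to 0.974, which covers counting error only. Within groups the variance of the counts was 1.57 times that of counting error alone for mir-34b, 7.87 times for mir-34c and 14.7 times for mir-34a. At a given relative spread this ratio grows with the mean count, so it does not rank the members by how variable they are. At 10 months 4 libraries stood apart from the rest in their connectivity (Q92 female replicate 1, Q92 male replicate 2, and male replicate 3 of both WT lines) and were left out of all tests. The liver label was not checked against marker microRNAs because no table used here pairs the accessions with names, and fewer cells of a type and less RNA per cell cannot be told apart in tissue.

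To compare the members with each other, the deposited FPKM, which are per length, were used. The mean FPKM was 367 ± 129 (SD, n = 96) for mir-34a, 175 ± 83.5 for mir-34c and 10.5 ± 7.38 for mir-34b. mir-34c was above mir-34b in 96 of 96 libraries, with a median ratio of 17.1. mir-34a was above mir-34c in 88 of 96, in 24 of 24 females at each age, in 21 of 24 males at 6 months and in 19 of 24 males at 10 months. The median ratio of mir-34a to mir-34c was 3.52 in females and 2.11 in males at 6 months, and 2.37 and 1.39 at 10 months. The median ratio thus differed by sex and by age, but the ranges overlapped, and the difference was not tested. The ranges were 1.65 to 9.81 in females and 0.745 to 5.36 in males at 6 months, and 1.08 to 6.47 and 0.491 to 3.18 at 10 months. mir-34a took a median of 76.5% of the family's FPKM in 6-month females but 56.4% in 10-month males. The order, ratio and share of mir-34a against mir-34c depend on the unit, since FPKM divides by hairpin lengths of 102 and 77 nucleotides. By CPM the means were 37.5 for mir-34a, 13.5 for mir-34c and 0.884 for mir-34b. Q140 male replicate 3 at 6 months held 80 counts of mir-34a and 65 of mir-34c, but 169 and 182 FPKM. In Q140 male replicate 4 at 10 months mir-34c was higher in counts too, with 209 against 136.

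**Figure D1:**
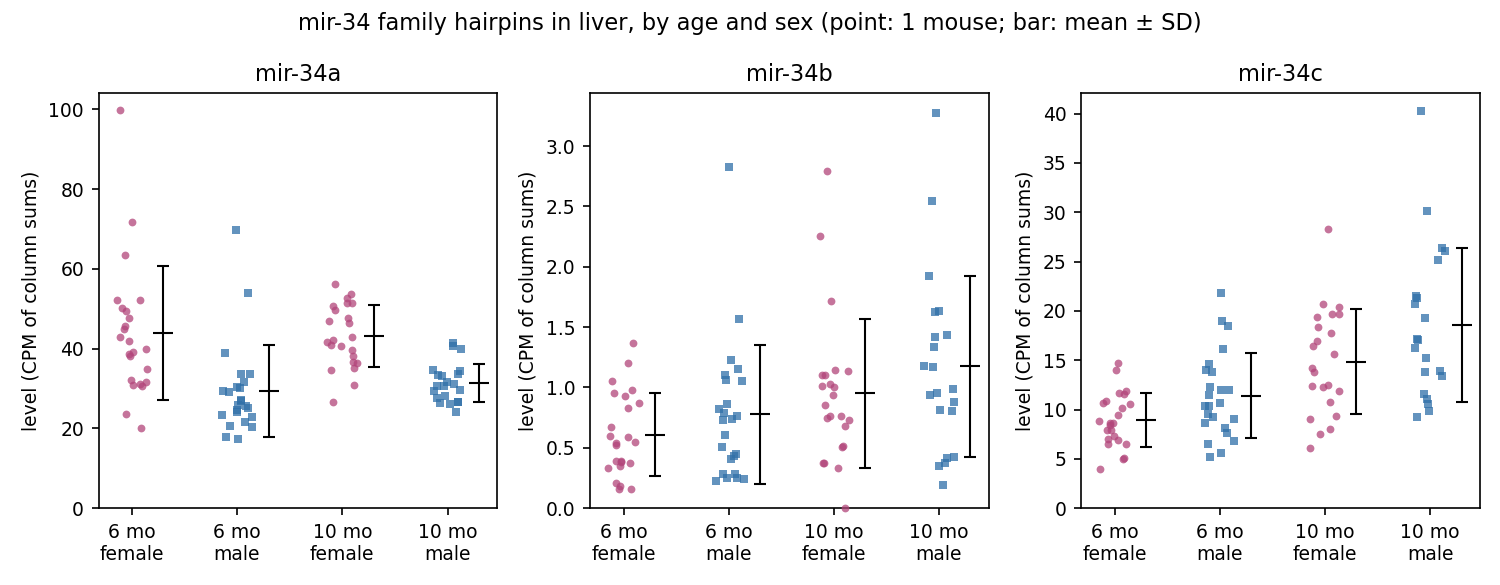
Level of each mir-34 hairpin (y axis, CPM of the column sums, each panel on its own scale from 0) in 24 female and 24 male mice at 6 months and 23 female and 21 male mice at 10 months (x axis). Points are mice and bars are the mean ± SD. mir-34a was lower in males at both ages (means 43.9 and 29.3, then 43.2 and 31.4), and mir-34c was higher at 10 than at 6 months in both sexes.

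The first comparison asks how the members differ between the sexes. mir-34a was lower in males at both ages, and mir-34c was higher in males at 6 months. At 6 months the level of mir-34a had a lowest, median and highest value of 17.2, 26.4 and 69.7 CPM in 24 males and of 20.1, 40.8 and 99.8 CPM in 24 females. Of these males, 22 of 24 were below the mean of the females, but the ranges overlapped. The fitted difference was -0.54 ± 0.13 (log2, SE), or 0.688-fold in males (edgeR adjusted p = 0.0010). At 10 months the same 3 values were 24.2, 30.7 and 41.4 CPM in 21 males and 26.6, 42.2 and 56.2 CPM in 23 females. All 21 males were below the mean of the females, and 4 were below the lowest female. The fitted difference was -0.43 ± 0.08, or 0.742-fold (edgeR adjusted p = 8.4e-06). The spread between mice was smaller at 10 months, with SDs of 7.85 and 4.84 CPM in females and males against 16.8 and 11.5 CPM at 6 months.

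The direction of mir-34a did not rest on 1 genotype. The mean of males was below that of females in 5 of 6 genotype and line groups at 6 months and in 6 of 6 at 10 months, and the exception was Q92 at 6 months, with 37.0 ± 21.9 CPM in males and 31.9 ± 12.1 in females (n = 4 each). The library labels hold a tag such as L6, which is called a lane tag here although they do not say what it stands for. Within the lane tags that held at least 8 libraries, the difference at 6 months was -0.36 in L6 and -0.70 in L7. At 10 months it was -0.39, -0.46 and -0.26 in L5, L6 and L7. Adjusted within a tag, it passed the threshold in L7 at 6 months and in L6 at 10 months (edgeR adjusted p = 0.0062 and 0.0012), and missed it in L6 at 6 months (0.198) and in L5 and L7 at 10 months (0.083 and 0.310).

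mir-34c had a lowest, median and highest level of 5.22, 10.5 and 21.8 CPM in males and of 4.02, 8.60 and 14.7 CPM in females at 6 months. Of 24 males, 17 were above the mean of the females and 4 were above the highest female. The fitted difference was 0.37 ± 0.14, or 1.29-fold (edgeR adjusted p = 0.028). At 10 months the same values were 9.27, 17.1 and 40.2 CPM in males and 6.14, 14.2 and 28.3 CPM in females. The difference was close to that at 6 months, 0.33 ± 0.14 or 1.25-fold, and narrowly missed the threshold (edgeR adjusted p = 0.052). Neither call was firm. At 6 months the call was lost without any 1 of 10 libraries: Q140 female replicate 1, Q20 female replicates 2 and 3, Q20 male replicate 2, Q50 female replicate 2, Q50 male replicate 4, Q92 female replicate 3, Q92 male replicates 1 and 4, and Q50-line WT female replicate 1, with differences of 0.29 to 0.33 (edgeR adjusted p = 0.050 to 0.077). At 10 months it was gained without any 1 of 15: Q140 female replicate 3, Q140 male replicates 1 and 2, Q20 male replicates 1, 2 and 4, Q50 female replicate 4, Q50 male replicate 2, Q92 female replicate 3, Q92 male replicate 4, Q20-line WT female replicate 2, Q50-line WT female replicates 3 and 4 and Q50-line WT male replicates 2 and 4, with differences of 0.34 to 0.42 (edgeR adjusted p = 0.0094 to 0.049). Within lane tags it was 0.21 in L6 and 0.51 in L7 at 6 months, and 0.15, 0.50 and 0.25 in L5, L6 and L7 at 10 months, and passed the threshold in none.

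mir-34b had mean levels of 0.608 ± 0.342 CPM in females and 0.776 ± 0.573 in males at 6 months (SD, n = 24 each), and of 0.951 ± 0.617 (n = 23) and 1.17 ± 0.752 (n = 21) at 10 months. The fitted differences were 0.33 ± 0.25 and 0.25 ± 0.25 and did not pass (edgeR adjusted p = 0.305 and 0.448). At counts of this size a difference as large as that of mir-34c could not be told from 0. Sex differences were common in the liver table, with 38.2% of 374 hairpins tested past the threshold at 6 months and 45.2% of 383 at 10 months, so that 2 of 3 and 1 of 3 members past it were near the background. The sex difference did not pass as different between the ages for any member (edgeR adjusted p = 0.804, 0.938 and 0.932 for mir-34a, mir-34b and mir-34c), as for 0% of 408 hairpins tested, of which 53 had an unadjusted p under 0.05. Library totals also differed between the sexes, as given above, and their part in these differences was not tested.

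The age comparison set 44 mice at 10 months against 48 at 6 months. mir-34c and mir-34b rose with age, while mir-34a did not pass the test. mir-34c had a lowest, median and highest level of 4.02, 9.47 and 21.8 CPM at 6 months and of 6.14, 15.9 and 40.2 CPM at 10 months. Of the 44 older mice, 37 were above the 6-month mean of their own sex and 6 were above the highest 6-month mouse. The fitted difference was 0.58 ± 0.10, or 1.50-fold (edgeR adjusted p = 5.6e-07). The group mean was higher at 10 months in 6 of 6 female groups and in 5 of 6 male groups, the exception being WT of the Q50 line, with 13.7 ± 5.47 CPM at 6 months and 11.9 ± 2.40 at 10 months (n = 4 each).

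mir-34b had a lowest, median and highest level of 0.155, 0.594 and 2.83 CPM at 6 months and of 0, 0.948 and 3.27 CPM at 10 months. The ranges covered nearly the same span, and 33 of 44 older mice were above the 6-month mean of their sex. The fitted difference was 0.49 ± 0.18, or 1.40-fold (edgeR adjusted p = 0.019). mir-34a had medians of 31.5 CPM at 6 months and 35.8 at 10 months, within ranges of 17.2 to 99.8 and 24.2 to 56.2 CPM. Its fitted difference was -0.06 ± 0.07 (edgeR adjusted p = 0.510), with an approximate 95% interval of -0.21 to 0.09, and its sign turned with the scaling, to 0.05 when the column sums were used without TMM factors. Age changed 58.6% of 408 hairpins tested, so that 2 of 3 members was near the background. Of these 239 hairpins 54.0% were higher at 10 months, and 70.3% of 239 with column sums only, a scaling that moved the median difference over all hairpins by 0.12 (log2). The difference of mir-34c was 0.58 beside a median of 0.01 with TMM and 0.70 beside a median of 0.13 with column sums only, and that of mir-34a lay below the median under both scalings. The ages are separate sets of mice and libraries, so that age and any difference between the sets in handling cannot be told apart.

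**Figure D2:**
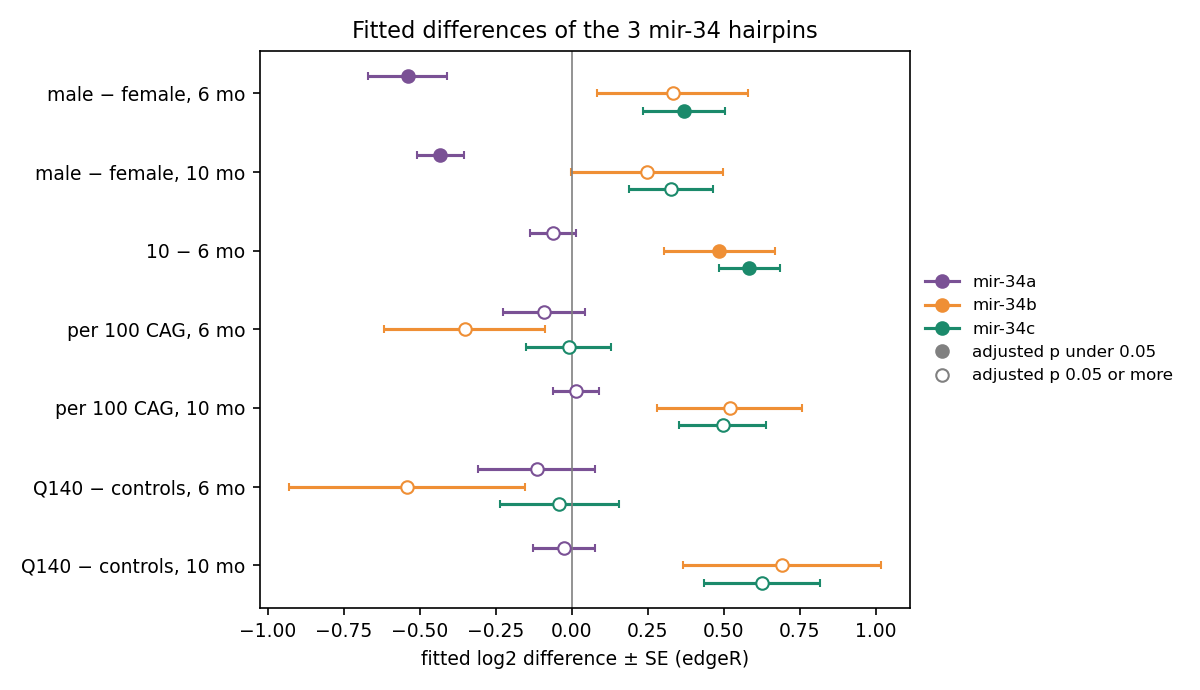
Fitted log2 differences (x axis, point ± SE, edgeR) of mir-34a, mir-34b and mir-34c for sex, age, CAG length per 100 repeats and Q140 against controls (y axis). Filled points have an adjusted p under 0.05. The points of mir-34b and mir-34c lie on the same side of 0 in each comparison shown, those of mir-34a lie on the other side for sex and age, and no CAG or Q140 point is filled.

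The question of the study was whether microRNA levels follow the CAG length of Htt. No member passed the threshold for CAG length or for a knock-in genotype at either age, and the nearest was mir-34c at 10 months. At that age mir-34c had a mean of 13.7 ± 5.89 CPM in 22 controls (SD), 16.9 ± 6.03 in 8 Q50 mice, 20.0 ± 4.78 in 6 Q92 mice and 21.7 ± 7.83 in 8 Q140 mice. The 8 Q140 mice had 20.7, 20.4, 19.7 and 15.7 CPM in females and 15.3, 20.7, 21.3 and 40.2 CPM in males. The 6 Q92 mice had 16.9, 19.4 and 18.3 CPM in females and 26.1, 25.1 and 13.8 CPM in males. The controls ran from 6.14 to 30.1 CPM with a median of 12.1, and only 1 Q140 mouse, male replicate 4, lay above them. Against the control mean of their own sex, 7 of 8 Q140, 5 of 6 Q92 and 6 of 8 Q50 mice were higher.

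The slope of mir-34c on CAG length at 10 months was 0.50 ± 0.14 per 100 repeats (log2, SE), with an edgeR adjusted p of 0.055 (0.0013 before adjustment) over 383 hairpins of which 2.09% passed. By p it ranked 8th among the hairpins with a positive slope. The call turned with the processing. It was made by the DESeq2 Wald test (0.49, adjusted p = 0.026), with column sums as the only scaling (0.53, edgeR adjusted p = 0.030), without WT mice (0.63, edgeR adjusted p = 0.041) and without the lane tag (0.48, edgeR adjusted p = 0.048), and not with the other settings tried, for which the edgeR adjusted p ran up to 0.998 within 1 lane tag. It was also made without any 1 of 8 libraries: Q140 male replicates 1 and 2, Q20 male replicate 3, Q50 female replicates 2 and 4, Q20-line WT female replicate 2, Q20-line WT male replicate 2 and Q50-line WT female replicate 3, with slopes of 0.49 to 0.57 (edgeR adjusted p = 0.0098 to 0.048). Without Q140 male replicate 4, the highest mouse of all, the slope was 0.40 (edgeR adjusted p = 0.188). Within lane tags it was 0.07 in L5, 0.70 in L6 and 0.67 in L7, and it was 0.53 in females and 0.41 in males alone.

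Q140 mice at 10 months had 1.54-fold the mir-34c level of controls in the fit (0.63 ± 0.19, edgeR adjusted p = 0.079, 1.31% of hairpins passing). The difference was 0.83 and passed (edgeR adjusted p = 0.033) with Q20 mice as the only controls, and 0.52 with WT mice alone (edgeR adjusted p = 0.340). It passed without Q140 male replicate 1 (0.71, edgeR adjusted p = 0.043) or without Q20-line WT male replicate 2 (0.71, edgeR adjusted p = 0.018), and was 0.47 without Q140 male replicate 4 (edgeR adjusted p = 0.355). An exact permutation test on CPM, without adjustment, gave p = 0.0051 for 8 Q140 against 22 control mice (two-sided). It shuffled mice over sexes and lane tags and used column sums only, which moved the median Q140 difference over all hairpins by 0.043 (log2). Q92 mice had 0.56 ± 0.22 (edgeR adjusted p = 0.252, 1.04% passing) and Q50 mice 0.30 ± 0.20 (edgeR adjusted p = 0.9996, 0% passing, with 9 hairpins at an unadjusted p under 0.05). These 3 comparisons share their controls.

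**Figure D3:**
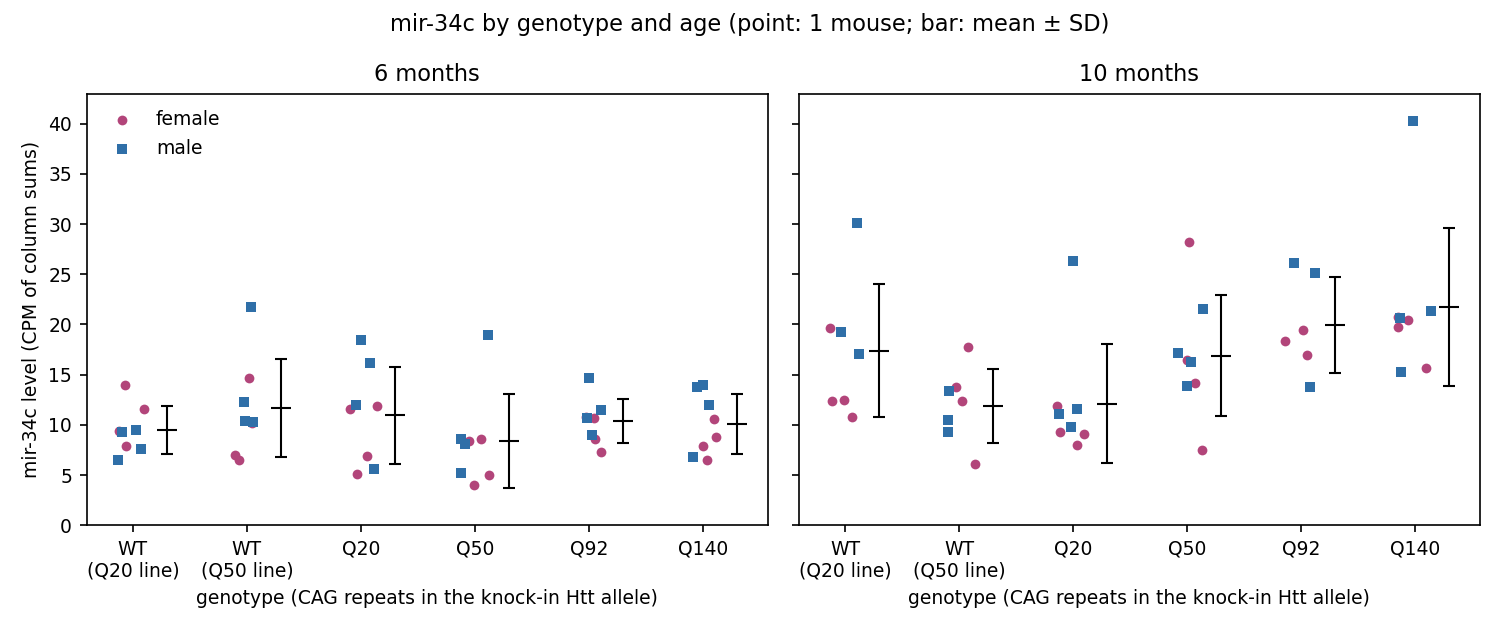
Level of mir-34c (y axis, CPM of the column sums, from 0) by genotype and WT line (x axis) at 6 months (left, 8 mice each) and 10 months (right, 6 to 8 mice each). Points are mice, circles female and squares male, and bars are the mean ± SD. At 6 months the means lie between 8.37 and 11.6 CPM in no order of CAG length, and at 10 months they run from 11.9 to 21.7 CPM, with Q140 highest.

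Among the 10-month controls no difference of mir-34c passed the test, and their means are given because they make up the reference. mir-34c had 17.4 ± 6.65 CPM in 7 WT mice of the Q20 line, 11.9 ± 3.71 in 7 WT mice of the Q50 line and 12.1 ± 5.89 in 8 Q20 mice. Q20 mice stood at -0.54 ± 0.24 against WT mice of their line (edgeR adjusted p = 0.411), and 7 of 8 were below the WT mean of their sex. WT of the Q50 line stood at -0.49 ± 0.26 against WT of the Q20 line (edgeR adjusted p = 0.442), and Q50 mice at 0.49 ± 0.25 against WT of their own line (edgeR adjusted p = 0.976). Of 383 hairpins 0% passed in each of these 3 comparisons, with 39, 43 and 17 at an unadjusted p under 0.05. The first and the second share the 7 WT mice of the Q20 line as reference, and the second and the third share the 7 WT mice of the Q50 line.

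At 6 months the levels of mir-34c showed no order by CAG length. The means were 10.7 ± 4.12 CPM in 24 controls, 8.37 ± 4.67 in Q50, 10.4 ± 2.21 in Q92 and 10.0 ± 2.99 in Q140 mice (SD, n = 8 each). The slope was -0.01 ± 0.14 per 100 repeats (edgeR adjusted p = 0.995), and it differed from that at 10 months by 0.47 ± 0.20, with an edgeR adjusted p of 0.413 (0.018 before adjustment). Of 408 hairpins 0% passed this test of the difference between the ages, with 44 at an unadjusted p under 0.05. Combined over both ages, mir-34c had a Z of 2.23 (adjusted p = 0.417 from the edgeR fits, 0.546% of 366 hairpins passing). The background at 6 months was 0% for CAG length, for Q50 and for Q140, with 8, 7 and 5 of 374 hairpins at an unadjusted p under 0.05, and 0.267% for Q92. It was also 0% for Q20 and for Q50 against WT of their own lines and between the WT lines, with 24, 1 and 15 hairpins at an unadjusted p under 0.05.

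mir-34b, at a far lower level, did not pass for CAG length or a knock-in genotype either. Its slope was 0.52 ± 0.24 per 100 repeats at 10 months and -0.35 ± 0.26 at 6 months (edgeR adjusted p = 0.291 and 0.995), and the difference between the ages was 0.82 ± 0.36, with an edgeR adjusted p of 0.413 (0.025 before adjustment). The 8 Q140 mice at 10 months held 15, 6, 7 and 6 counts of mir-34b in females and 2, 4, 7 and 17 in males, or 1.36 ± 0.936 CPM against 0.861 ± 0.548 in 22 controls. The 2 mice with the most counts, female replicate 1 and male replicate 4, carried the mean, and without the latter the difference fell from 0.69 to 0.47 (edgeR adjusted p = 0.366 and 0.638).

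mir-34a passed in none of these comparisons. Its slope was -0.09 ± 0.13 at 6 months and 0.01 ± 0.08 at 10 months (edgeR adjusted p = 0.995 and 0.950), with an approximate 95% interval of -0.14 to 0.16 per 100 repeats at 10 months. At 10 months it had 38.0 ± 8.22 CPM in controls, 33.0 ± 6.22 in Q50, 40.9 ± 10.9 in Q92 and 38.5 ± 10.8 in Q140 mice, with differences from controls of -0.16, 0.12 and -0.03 (edgeR adjusted p = 0.9996, 0.656 and 0.937). The largest differences of mir-34a with genotype were among controls at 6 months, where Q20 stood at -0.45 ± 0.23 and WT of the Q50 line at -0.43 ± 0.23 against WT of the Q20 line (edgeR adjusted p = 0.762 and 0.846). WT of the Q20 line held the highest mouse there, with 99.8 CPM.

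Over all 24 groups, with all 96 libraries and 4 mice each, the mean of mir-34a in females at 6 months was 58.4 ± 28.0 CPM (SD) for WT of the Q20 line, 40.4 ± 15.4 for WT of the Q50 line, then 42.4 ± 8.53 for Q20, 43.7 ± 10.4 for Q50, 31.9 ± 12.1 for Q92 and 46.5 ± 17.5 for Q140. In males of this age, in the same order, it was 35.1 ± 12.7, 25.4 ± 3.67, 25.3 ± 9.44, 29.9 ± 4.26, 37.0 ± 21.9 and 23.1 ± 6.13 CPM. At 10 months it was 44.1 ± 4.96, 43.3 ± 6.82, 41.0 ± 10.6, 35.8 ± 4.03, 50.6 ± 6.35 and 46.8 ± 8.57 CPM in females. In males it was 34.3 ± 10.1, 29.6 ± 3.05, 35.6 ± 6.66, 30.2 ± 7.26, 39.0 ± 13.8 and 30.1 ± 3.67 CPM. Ordered from high to low, the 10 highest groups were female, and the lowest was Q140 males at 6 months. Of the 23 steps between neighbours in this order, 1 exceeded the larger SD of its 2 groups, that from WT males of the Q50 line at 10 months to those at 6 months. Without the libraries left out of the tests it was 1 step again, now from WT males of the Q20 line at 10 months to WT males of the Q50 line at 6 months, and in both orders the ranges of neighbours overlapped in every step.

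For mir-34c, in the same order of genotypes, the mean at 6 months was 10.7 ± 2.65, 9.57 ± 3.77, 8.88 ± 3.41, 6.51 ± 2.34, 9.36 ± 1.70 and 8.44 ± 1.68 CPM in females and 8.21 ± 1.45, 13.7 ± 5.47, 13.0 ± 5.64, 10.2 ± 6.01, 11.5 ± 2.36 and 11.7 ± 3.33 CPM in males. At 10 months it was 13.8 ± 3.99, 12.5 ± 4.83, 9.57 ± 1.64, 16.6 ± 8.64, 21.2 ± 6.06 and 19.1 ± 2.34 CPM in females and 21.1 ± 6.12, 11.9 ± 2.40, 14.7 ± 7.79, 17.2 ± 3.18, 19.8 ± 6.70 and 24.4 ± 10.9 CPM in males. The 9 highest groups were all 10 months old, with Q140 males first. The order just below Q140 males rested on libraries left out of the tests. Q92 females came next with replicate 1 (30.2 CPM) included, and without the 4 libraries their mean was 18.2 CPM, below 22.2 in WT males of the Q20 line, 21.7 in Q92 males and 19.1 in Q140 females. With or without these libraries, none of the 23 steps between neighbours exceeded the larger SD of its groups, and the ranges of neighbours overlapped in every step. The lowest and the highest group of the order did not overlap. These were Q50 females at 6 months (4.02 to 8.60 CPM) and Q140 males at 10 months (15.3 to 40.2 CPM). They were picked by their means and differ in age, sex and genotype, so this is a description only.

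For mir-34b the mean at 6 months was 0.520 ± 0.285, 0.730 ± 0.333, 0.442 ± 0.235, 0.740 ± 0.356, 0.851 ± 0.505 and 0.364 ± 0.146 CPM in females and 0.601 ± 0.443, 1.23 ± 1.12, 1.01 ± 0.492, 0.753 ± 0.372, 0.484 ± 0.188 and 0.588 ± 0.346 CPM in males. At 10 months it was 0.689 ± 0.216, 0.523 ± 0.451, 0.692 ± 0.236, 1.09 ± 0.548, 1.74 ± 1.01 and 1.32 ± 0.621 CPM in females and 1.33 ± 0.904, 0.926 ± 0.0838, 0.938 ± 0.708, 1.14 ± 0.645, 1.10 ± 0.540 and 1.41 ± 1.29 CPM in males. The order ran from Q92 females at 10 months to Q140 females at 6 months. Without the libraries left out of the tests, WT males of the Q20 line at 10 months came first, with 1.62 CPM against 1.53 in Q92 females. In neither order did any of the 23 steps exceed the larger SD. On the deposited FPKM the order of the groups was the same for each member, since FPKM is CPM over length.

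The members were then set against each other across mice, within each age and sex, as log2(CPM + 0.5), in 12 relations. mir-34b and mir-34c had a Pearson r of 0.12 in 24 females and 0.45 in 24 males at 6 months, and of 0.61 in 23 females and 0.48 in 21 males at 10 months. Only that in 10-month females passed after Benjamini-Hochberg adjustment (permutation p = 0.0019, adjusted 0.023, and r = 0.51 without the 2 mice farthest from the median of mir-34b), and its Spearman rho of 0.52 did not (permutation p = 0.013, adjusted 0.155). The other 3 had adjusted Pearson permutation p of 0.859, 0.108 and 0.108, with r of 0.14, 0.26 and 0.30 without the 2 farthest mice and Spearman rho of 0.11, 0.34 and 0.44 (adjusted permutation p = 0.909, 0.414 and 0.268). The 8 relations of mir-34a with the other 2 members had r between -0.28 and 0.27 and adjusted permutation p of at least 0.535. All genotypes entered each relation, so that differences between genotypes are part of it.

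**Figure D4:**
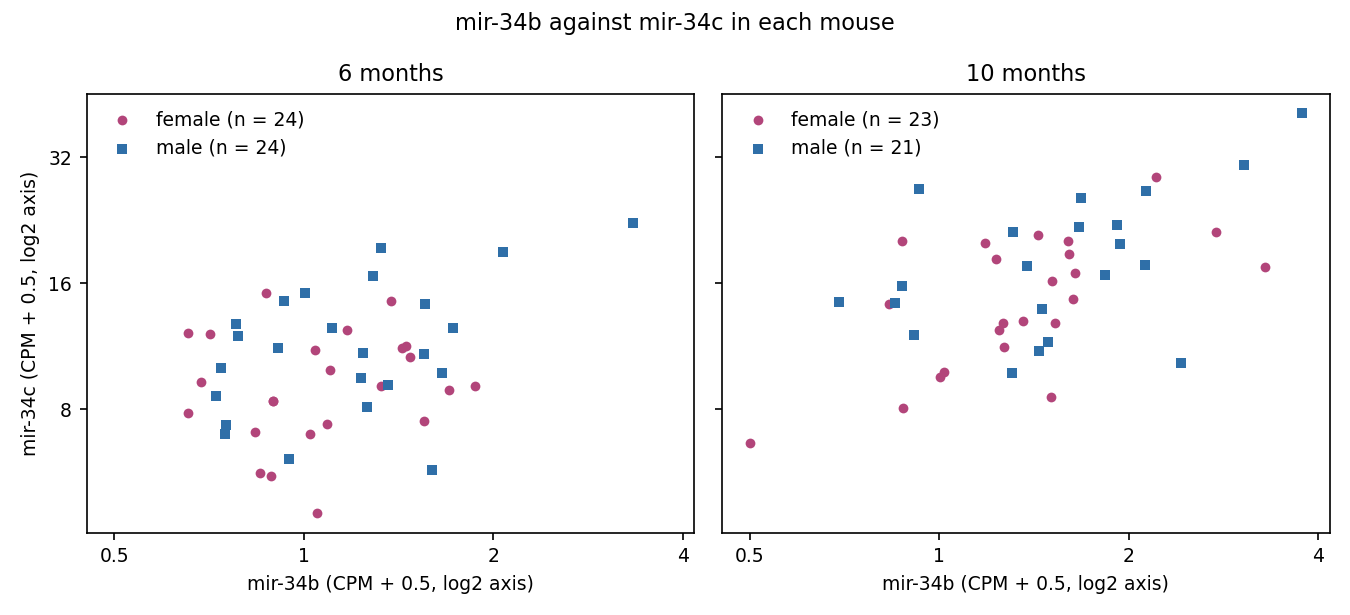
Level of mir-34b (x axis) against that of mir-34c (y axis) in each mouse, both as CPM + 0.5 on log2 axes, at 6 months (left) and 10 months (right). Circles are females and squares males. The points rise together most clearly in the 23 females at 10 months (r = 0.61), and 1 female there lies at 0.5 on the x axis because it had 0 counts of mir-34b.

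Over the 24 group means, as a description, mir-34b and mir-34c had a Pearson r of 0.769, and mir-34c ranked 2nd of 330 hairpins by likeness to mir-34b. A hairpin of 70 nucleotides and 1558 CPM ranked 1st, with r = 0.818, and the 3rd had r = 0.765. With a mean of 0.884 CPM, mir-34b was under the 1 CPM set for members in this description. mir-34a had r = -0.05 with mir-34c, where it ranked 241st of 329, and r = -0.14 with mir-34b. The hairpin most like mir-34c was MI0000714, of 110 nucleotides and 17.4 CPM, with r = 0.87. That most like mir-34a was MI0004249, of 97 nucleotides and 1388 CPM, with r = 0.84. All means share libraries, sexes and ages, so such values carry the common age and sex differences of these livers.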

How the data were processed

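Per the study's methods, small RNA was sequenced as strand-specific single-end reads, aligned with STAR to mm10 and counted with HTSeq, and the labels name CASAVA 1.8.2. The authors deposited estimated counts per hairpin and FPKM values, the latter scaled by library total and hairpin length. The source of the hairpin annotation is not stated there. The values of the 3 members were whole within 0.0001 in all 96 libraries.

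Here, estimated counts were rounded, although the design had assumed counts. At each age libraries with a connectivity Z.k under -5 were left out (0 at 6 months, 4 at 10 months, 92 kept). A hairpin entered the tests when 8 or more libraries held it at 1 CPM or above. The main test was the quasi-likelihood test of edgeR 4.0.16 under R 4.3.3 with TMM scaling, Benjamini-Hochberg adjustment over all hairpins tested and a threshold of 0.05. Sex and the lane tag were covariates within an age, and sex, WT line, own-line and age tests used 6 genotype and line levels. Within a lane tag the sex difference was instead fitted beside CAG length as a number. Age tests and the tests between ages had no lane term. The study names a batch covariate without defining it, and the lane tag was taken for it. This tag is the part L5 to L8 of the library labels, which do not say what it stands for, and the name lane is a reading made here. CAG length was 7 for WT. Slopes are per 100 repeats, and ages were combined as summed signed Z over the square root of 2. Levels are CPM of the column sums. DESeq2 1.42.0, permutation tests (exact, or 100000 resamples) and the other alternatives appear in the closing section. Permutations and correlations used Python 3.11.15 and numpy 2.4.6. Columns of no sample numbered 0. The labels number replicates without naming animals, and each library was taken as 1 mouse, as the study's methods describe. The tests were run on counts simulated with the same dispersion for all hairpins, where only the size of the fitted differences was required to be close. Error rates at the spread of these 3 members were not checked.

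The members, the comparisons and the lists were chosen with earlier results of these data known. The hairpins named beside the members are those with the highest Pearson r over the 24 group means, among hairpins with a mean of at least 1 CPM. Lists of other p53-linked microRNAs, of the Mir449 group and of cell type markers need names for the accessions and were not run. CASAVA is credited to the submitters' processing notes. Library totals ran from 2195052 to 6662671 counts, which leaves mir-34b at a median of 4 counts a library.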

Additional observations from a re-analysis of the deposited data

Results flagged for a closer look

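Each group of 4 mice was searched for a single mouse far from the other 3, in 72 sets of 3 hairpins by 24 groups, of which chance flags about 1 in 20. There were 6 such mice, each the highest of its group. For mir-34a they were WT of the Q50 line, 6 months, female replicate 2 (63.4 CPM, others 31.1 to 34.8), WT of the Q20 line, 6 months, male replicate 2 (54.0 CPM, others 27.2 to 30.0), Q92, 6 months, male replicate 3 (69.7 CPM, others 23.2 to 29.4) and Q92, 10 months, male replicate 2 (59.5 CPM, others 29.4 to 33.6), the last of which the connectivity limit had left out of the tests. For mir-34b it was Q140, 10 months, female replicate 1, with 15 counts (2.25 CPM, others 0.935 to 1.10). For mir-34c it was Q20, 10 months, male replicate 3 (26.3 CPM, others 9.82 to 11.6). Without Q92 male replicate 3 the sex difference of mir-34a at 6 months was -0.62 (log2, edgeR adjusted p = 2.7e-05), and it lay between -0.62 and -0.50 without any 1 library.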

How the results depend on the processing

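Values are log2 differences or slopes unless named. The sex differences of mir-34a and the age differences of mir-34b and mir-34c kept their direction and call under every alternative run on all lane tags, including each library left out. Other settings gave 23 reversed signs, all of values that did not pass the test in either case. With column sums only, mir-34c in Q92 at 6 months was -0.0071, mir-34a in Q140 at 10 months 0.017 and mir-34a with age 0.049, and with the permutation test on CPM these were -0.038, 0.017 and 0.038, with -0.040 for mir-34a in Q50 at 6 months. With all libraries kept, mir-34a between WT lines at 10 months was -0.036. Without the lane tag, mir-34b in Q50 at 6 months was 0.077. With WT as the only controls, mir-34a in Q50 at 6 months was -0.052. With Q20 as the only controls, at 6 months mir-34b was 0.053 in Q50 and 0.036 in Q92, mir-34a was 0.16 in Q92 and 0.091 in Q140, and mir-34c in Q140 at 10 months was 0.83 and passed. Without WT mice, the slope at 6 months was 0.073 for mir-34a and 0.061 for mir-34c, at 10 months -0.0042 for mir-34a and 0.63 for mir-34c, which passed, and the combined Z of mir-34a was 0.24. Within lane tags, the slope of mir-34c in L6 at 6 months was 0.095, that of mir-34a 0.030 in L7 at 6 months and -0.053 in L6 at 10 months. In males alone, chosen after seeing the data, the slope was 0.15 for mir-34c at 6 months and -0.10 for mir-34a at 10 months.

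For calls, the mir-34c sex difference at 6 months did not pass with column sums only (0.33), without the abundance filter (0.35) or within L6 (0.21) and L7 (0.51). That at 10 months passed with DESeq2 size factors (0.36) and the DESeq2 Wald test (0.36), and its unadjusted permutation p was 0.069 (0.32) against an unadjusted 0.024 in edgeR. That of mir-34a did not pass within L6 at 6 months (-0.36) or within L5 (-0.39) and L7 (-0.26) at 10 months. The 10-month slope of mir-34c passed with column sums only (0.53), DESeq2 (0.49) and no lane tag (0.48). The permutation p of mir-34b in Q140 at 10 months was 0.069 (0.67), against an unadjusted 0.040 in edgeR. The cause of these changes was not tested. Within a lane tag fewer libraries enter, and the sex difference is fitted beside CAG length in place of the genotype and line levels.

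Counts over all hairpins also moved. At 10 months 8 hairpins passed for CAG length, against 18 with column sums only, 17 with the DESeq2 Wald test, 17 without WT mice, 4 without the abundance filter and 0 in males alone. For Q140 5 passed, against 8 with column sums only, 10 with DESeq2, 3 with all libraries, 21 with Q20 and 0 with WT as the only controls. For Q92 4 passed, against 8 with DESeq2, 9 with Q20 and 1 with WT as the only controls and 7 with the replicate block, and at 6 months 1 passed, against 0 with Q20 as controls or the block. With ages combined 2 passed, against 0 without WT mice and 1 with all libraries or no lane tag. Where 0 had passed, the slope by age had 4 without the filter, sex by age 4 with DESeq2 size factors and 2 with the Wald test, and the WT lines at 10 months 1 with the Wald test.

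Leaving out 1 library at a time, the range was 0.29 to 0.41 for mir-34c with sex at 6 months, 0.22 to 0.42 at 10 months, 0.40 to 0.57 for its slope and 0.47 to 0.71 for Q140 at 10 months. Signs turned within -0.046 to 0.051 for the mir-34c slope at 6 months, -0.11 to 0.026 for mir-34c in Q140 and -0.042 to 0.083 in Q92 at 6 months, and -0.11 to 0.032 for its sex by age term. For mir-34a they turned within -0.019 to 0.046 for the slope and -0.079 to 0.022 for Q140 at 10 months, -0.023 to 0.090 for Q50 and -0.31 to 0.079 for Q92 at 6 months, and -0.068 to 0.12 between WT lines at 10 months. For mir-34b they turned within -0.027 to 0.43 for Q20 against its own WT, -0.25 to 0.10 for Q50 and -0.41 to 0.04 for Q92 at 6 months, and -0.20 to 0.078 for sex by age.

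Replicate numbers showed no pairing of the mice on average. The average includes pairs from different lines, which cannot be littermates, and pairing within a line was not tested apart. Deviations from the group means correlated at a mean of -0.01 over 240 pairs with the same number and 0.01 over 720 others. With the replicate number as a block, the mir-34c sex difference at 10 months was 0.34 and passed (edgeR adjusted p = 0.041), and no other call of the members changed.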

Other observations

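Of the 4 libraries left out of the tests at 10 months, 2 were high in mir-34a. Q92 male replicate 2 held 59.5 CPM and male replicate 3 of the Q20-line WT mice 49.2. Both were above the 24.2 to 41.4 CPM of the 21 males of that age kept for the tests. Their totals were low, 2.39e+06 and 2.20e+06 counts. With TMM factors they held 48.2 and 40.2 CPM, and the highest of the kept males, Q50 male replicate 2, held 39.7. Q92 female replicate 1 had 30.2 CPM of mir-34c and 10 counts of mir-34b, and Q92 male replicate 2 had 14.3 CPM of mir-34c and 3 counts of mir-34b. The 4 highest levels of mir-34a over all 96 libraries were at 6 months, with 99.8 CPM in WT of the Q20 line female replicate 1, 71.7 in Q140 female replicate 1, 69.7 in Q92 male replicate 3 and 63.4 in WT of the Q50 line female replicate 2.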
